A study of Mus musculus with 4 samples.

Results

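The 5 genes described here encode eosinophil granule proteins (Epx and Prg2), eosinophil receptors (Il5ra and Ccr3) and a transcription factor of the eosinophil lineage (Gata1). They were taken by symbol from the platform annotation, which gives each of them 1 probe set, so that 5 of 22690 probe sets and 5 of 12393 named genes are described. Epx lies on chromosome 11, Prg2 on chromosome 2, Il5ra on chromosome 6, Ccr3 on chromosome 9 and Gata1 on chromosome X. The study profiled sorted mouse bone marrow cells on 4 Affymetrix arrays, 1 for each population, to follow the role of Gfi1, a transcriptional repressor, in the choice between monocytes and granulocytes.

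The mice were untreated C57BL/6 animals of 8 weeks, backcrossed for at least 10 generations, in which a GFP reporter had been placed in the Gfi1 gene. Gfi1-deficient monocytes were CD11b+, Gr1-low cells of a homozygous mouse (GFP:Gfi1 KI/KI), called a knock-out in the labels. GFP-high monocytes and GFP-low monocytes were the CD11b+, Gr1-low cells with high and low reporter fluorescence of a heterozygous mouse (GFP:Gfi1 KI/WT). Granulocytes were CD11b+, Gr1-high cells of the same heterozygous genotype. Every population therefore carried at least 1 GFP allele, no wild-type array was included, and the sources used here do not give the number of animals behind each sample. The Gfi1-deficient cells were sorted without a stated GFP gate, so genotype and gate differ together wherever they are compared with a GFP fraction. Sex-linked transcripts differed as well: Xist read 5.80 in Gfi1-deficient monocytes against 9.56 to 10.93 on the other arrays, and Eif2s3y, a Y-linked gene, was at least 8.75-fold above each other array there. In every comparison with Gfi1-deficient monocytes, for Epx and Prg2 as for the other genes, genotype cannot be told apart from this difference.

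The monocyte part of the name GFP-high monocytes was not borne out by marker genes, and the name is kept here only as the label's. All 8 monocyte genes read were lower in GFP-high than in GFP-low monocytes, by 10.9-fold (Cd48) to 47.2-fold (Ccr2). Of all genes, 9.61% were at least 2-fold lower in that comparison. Of the 8, 6 had their lowest value of the 4 arrays in GFP-high monocytes, a count for which no share over all genes was computed. The secondary granule genes of neutrophils did not all have like levels in GFP-high monocytes and granulocytes. Of the 7 read, 5 stayed under 2-fold, among them Ltf (-0.03 on the log2 scale, GFP-high monocytes minus granulocytes) and Camp (0.22). The remaining 2 read lower in GFP-high monocytes, Mmp8 by 4.70-fold and Mmp9 by 5.05-fold. Across all genes of this comparison, 16.4% were past 2-fold upward and 8.93% downward, so that most genes stayed under 2-fold too. The count of 5 is therefore not read as particular to the secondary granule genes.

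Eosinophils are granulocytes that arise in bone marrow and are expanded by interleukin-5. Their granules hold a peroxidase and very basic, cell-toxic proteins that are made at the promyelocyte and myelocyte stages, before the mature cell leaves the marrow. The lineage needs Gata1, which is also a factor of red cells, megakaryocytes and mast cells, and the interleukin-5 receptor and the eotaxin receptor Ccr3 mark the committed and the mature cell.

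The 250 bases before the start site of 4 genes are shown. The granule genes were 2-fold apart between arrays, while the receptor genes were under or close to the limit of measurement. A link between these sequences and the levels was not tested. The promoter sequences used held no window of Prg2. Prg3, which is not a member, is shown in its place, and Epx is the only granule member shown. They are RefSeq sequences of GRCm38.p6, in lower case, with every 6-base GATA motif in capitals. The motif was AGATAA or AGATAG or TGATAA or TGATAG, searched on both strands with overlaps counted. Epx lies on the minus strand (chr11:87875537-87875786), Prg3, the neighbour and relative of Prg2, on the plus strand (chr2:84987965-84988214), Ccr3 on the plus strand (chr9:124021721-124021970) and Il5ra on the minus strand (chr6:106749038-106749287).
Epx: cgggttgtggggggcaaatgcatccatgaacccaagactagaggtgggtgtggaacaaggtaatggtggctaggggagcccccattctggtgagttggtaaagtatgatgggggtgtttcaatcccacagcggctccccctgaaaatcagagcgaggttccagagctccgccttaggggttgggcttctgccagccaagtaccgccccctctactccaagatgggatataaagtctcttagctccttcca
Prg3: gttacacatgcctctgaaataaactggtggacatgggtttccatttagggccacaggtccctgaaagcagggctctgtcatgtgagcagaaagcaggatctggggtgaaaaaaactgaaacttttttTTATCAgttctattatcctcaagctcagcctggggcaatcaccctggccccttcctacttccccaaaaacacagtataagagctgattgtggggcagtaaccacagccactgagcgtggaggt
Ccr3: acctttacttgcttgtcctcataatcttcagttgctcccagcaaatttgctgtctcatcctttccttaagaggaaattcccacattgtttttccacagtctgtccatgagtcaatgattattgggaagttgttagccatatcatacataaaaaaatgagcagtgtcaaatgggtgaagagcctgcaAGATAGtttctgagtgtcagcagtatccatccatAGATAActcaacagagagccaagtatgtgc
Il5ra: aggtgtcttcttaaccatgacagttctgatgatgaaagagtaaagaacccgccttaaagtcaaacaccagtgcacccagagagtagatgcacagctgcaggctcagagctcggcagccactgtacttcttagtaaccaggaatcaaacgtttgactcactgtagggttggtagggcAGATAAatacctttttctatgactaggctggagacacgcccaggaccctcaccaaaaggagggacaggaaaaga
Ccr3 held 2 matches, starting 64 and 30 bases before the start site. Prg3 held 1, starting at 123 bases, and Il5ra held 1, starting at 74 bases. The windows of Epx and of Gata1 held 0 matches. Of 32851 promoter windows of this length, 26.5% held at least 1 match and 6.40% held 2 or more. A match describes these letters and is not a measured binding site.

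The granule genes Epx and Prg2 were the members that separated the populations, and their highest and next highest arrays were the same. Both read highest in GFP-high monocytes and next in Gfi1-deficient monocytes, and both were low in granulocytes and in GFP-low monocytes. Il5ra was not measurable on any array, Ccr3 was measurable in GFP-high monocytes alone, and Gata1 stayed within a narrow range. Levels are the deposited log2 values. Values under a floor of 5.18, the 40th percentile of all values, were set to it, and a difference with 1 array under the floor is a bound, written "at least". With 1 array for each population there is no spread between animals and no test. Genes were counted as apart from a log2 difference of 1, which is 2-fold. In bulk samples such as these, fewer cells of a type and less RNA per cell cannot be told apart.

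**Figure D1:**
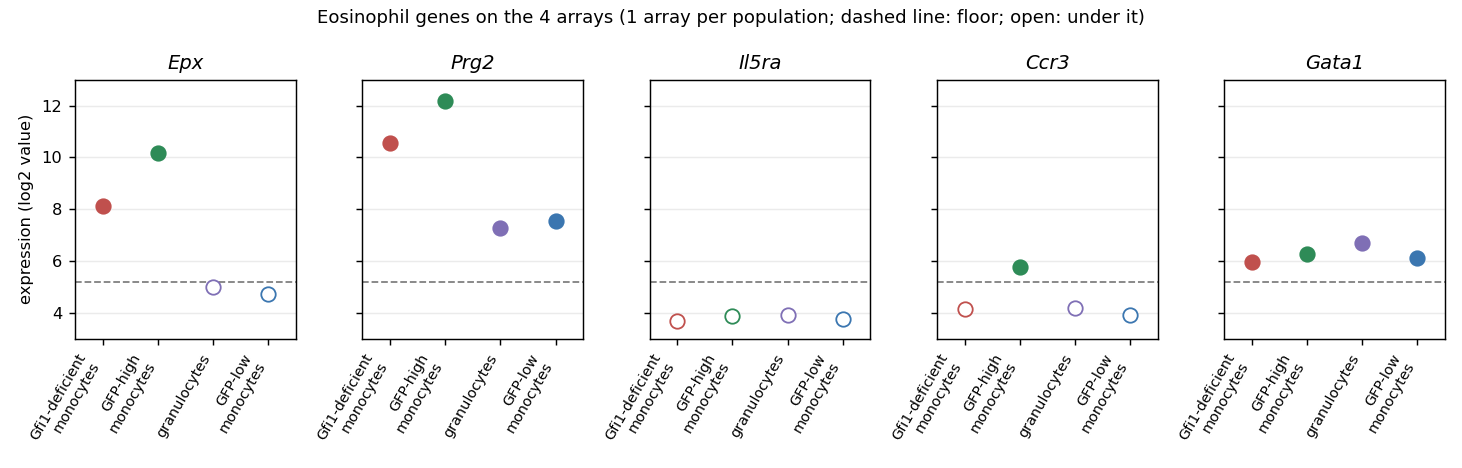
Expression (log2 value, y axis) of the 5 eosinophil genes on the 4 arrays (x axis), 1 point for each population, with the floor of 5.18 as a dashed line and values under it as open points. Epx and Prg2 are high in Gfi1-deficient and GFP-high monocytes, Ccr3 passes the floor in GFP-high monocytes (5.75), Il5ra on no array, and Gata1 lies between 5.95 and 6.68.

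Epx encodes eosinophil peroxidase, the granule enzyme that makes hypobromous acid. It read log2 8.11 in Gfi1-deficient monocytes, 10.18 in GFP-high monocytes, 5.02 in granulocytes and 4.75 in GFP-low monocytes. The last 2 values lie under the floor and have no order. The difference between Gfi1-deficient and GFP-high monocytes was measured on both sides and was -2.07, or 4.19-fold lower in Gfi1-deficient monocytes. Gfi1-deficient monocytes exceeded granulocytes and GFP-low monocytes by at least 7.63-fold, and GFP-high monocytes exceeded both by at least 32.0-fold.

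Prg2 encodes the eosinophil major basic protein, which forms the crystalline core of the granule. It read log2 10.54 in Gfi1-deficient monocytes, 12.16 in GFP-high monocytes, 7.29 in granulocytes and 7.53 in GFP-low monocytes, above the floor on each of the 4 arrays. Gfi1-deficient monocytes were 3.08-fold lower than GFP-high monocytes, 9.51-fold higher than granulocytes and 8.03-fold higher than GFP-low monocytes. GFP-high monocytes were 29.3-fold higher than granulocytes and 24.7-fold higher than GFP-low monocytes. The step between granulocytes and GFP-low monocytes was -0.24, under 2-fold. It was smaller than the disagreement among probe sets that read the same gene, which had an SD of 0.41 in that comparison over 2981 genes. That SD covers disagreement within these arrays and not between animals, and neither Epx nor Prg2 has a further probe set to set beside its own.

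Among genes measured above the floor on both arrays, the Prg2 difference ranked 3 of 7678 from the highest in Gfi1-deficient minus GFP-low monocytes. It ranked 9 of 7591 in GFP-high minus GFP-low monocytes, 6 of 7593 in GFP-high monocytes minus granulocytes and 57 of 7395 in Gfi1-deficient monocytes minus granulocytes. On the log2 scale the Gfi1-deficient value of Prg2 lay 64.9% of the way between the GFP-low and the GFP-high value, and that of Epx at least 58.6%. Gfi1-deficient monocytes thus held an intermediate level of both granule genes, nearer to GFP-high than to GFP-low monocytes on this scale.

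Il5ra encodes the alpha chain of the interleukin-5 receptor. It read log2 3.68 in Gfi1-deficient monocytes, 3.89 in GFP-high monocytes, 3.92 in granulocytes and 3.77 in GFP-low monocytes. No array reached the floor, the whole range was 0.24, and no fold is given. Csf2rb, the beta chain that the interleukin-5 receptor shares with those of interleukin-3 and GM-CSF, read 9.61 in Gfi1-deficient monocytes, 9.53 in GFP-high monocytes, 10.02 in granulocytes and 9.05 in GFP-low monocytes. Its 6 differences were all under 2-fold, the largest being 0.97 between granulocytes and GFP-low monocytes.

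Ccr3, the chemokine receptor through which eotaxins draw eosinophils into tissue, read log2 4.15 in Gfi1-deficient monocytes, 5.75 in GFP-high monocytes, 4.18 in granulocytes and 3.93 in GFP-low monocytes. The GFP-high array alone lay above the floor, so that Ccr3 was at least 1.49-fold higher there than on each other array, short of the 2-fold rule. That call depends on the floor. A floor at the 20th percentile gave a difference of -1.61 for Gfi1-deficient minus GFP-high monocytes, 1.58 for GFP-high monocytes minus granulocytes and 1.75 for GFP-high minus GFP-low monocytes, each past 2-fold. The array with the highest Ccr3 reading was thus the one with the highest Epx and Prg2 readings, at a level close to what these arrays can measure.

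Gata1 encodes the zinc finger factor that the eosinophil lineage needs. It read log2 5.95 in Gfi1-deficient monocytes, 6.27 in GFP-high monocytes, 6.68 in granulocytes and 6.14 in GFP-low monocytes. No pair of arrays was 2-fold apart. The Gfi1-deficient minus granulocyte difference was -0.74, that of GFP-high monocytes minus granulocytes -0.41 and that of granulocytes minus GFP-low monocytes 0.55, each larger than the probe set SD of that comparison (0.46, 0.37 and 0.41). The differences of -0.33, -0.19 and 0.14 among the Gr1-low arrays were within that SD (0.34, 0.19 and 0.33). Gata1 was thus highest on an array where Epx was under the floor.

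Genes of red cells had the same lowest and highest arrays as Gata1. Of the 11 erythroid genes above the floor on at least 1 array, 11 read lowest in Gfi1-deficient monocytes and 10 read highest in granulocytes, the exception being Tfrc. The summed linear level of the 12 with a probe set was 2871 in Gfi1-deficient monocytes, 4307 in GFP-high monocytes, 7160.0 in granulocytes and 3877 in GFP-low monocytes. Nfe2 had the highest value of the list on each array (log2 10.90, 11.22, 12.14 and 11.08 in that order). It weighs most in the sums, which are therefore not a measure of the list as a whole. Klf1, a globin gene regulator, read 6.37 in Gfi1-deficient monocytes, 6.44 in GFP-high monocytes, 7.49 in granulocytes and 7.05 in GFP-low monocytes. Alas2, the erythroid heme synthesis enzyme, read 6.73, 7.47, 8.55 and 7.83 on the same arrays in that order. Hba-a1 was under the floor on each of the 4 arrays. All 5 B cell genes above the floor were highest in granulocytes too, and the 7 with a probe set had summed levels of 268, 330.2, 698 and 431 in that order. The megakaryocyte and platelet list had 5 genes above the floor, of which 5 were lowest in Gfi1-deficient monocytes and 4 highest in granulocytes. In each comparison 0 of the 5 were 2-fold apart, against shares of all genes of 0.637% to 20.3% higher and 1.27% to 18.2% lower. Pf4, platelet factor 4, read 5.88 in Gfi1-deficient monocytes, 6.08 in GFP-high monocytes, 6.77 in granulocytes and 6.30 in GFP-low monocytes. The probe set that stands for Gp1bb was under the floor throughout. Another probe set of that gene read 3.63, 5.62, 5.25 and 3.69 in that order, and so was highest in GFP-high monocytes. The summed level of the 8 with a probe set was 353, 442, 531 and 417 in that order. The share of all genes lowest or highest on these same arrays was not computed. The counts of genes lowest or highest on an array are therefore not read as particular to these cell types or to Gata1. The part of such cells in the Gata1 values was not tested. Gata1 is X-linked, and the part of the difference in sex-linked transcripts in its value was not tested.

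**Figure D2:**
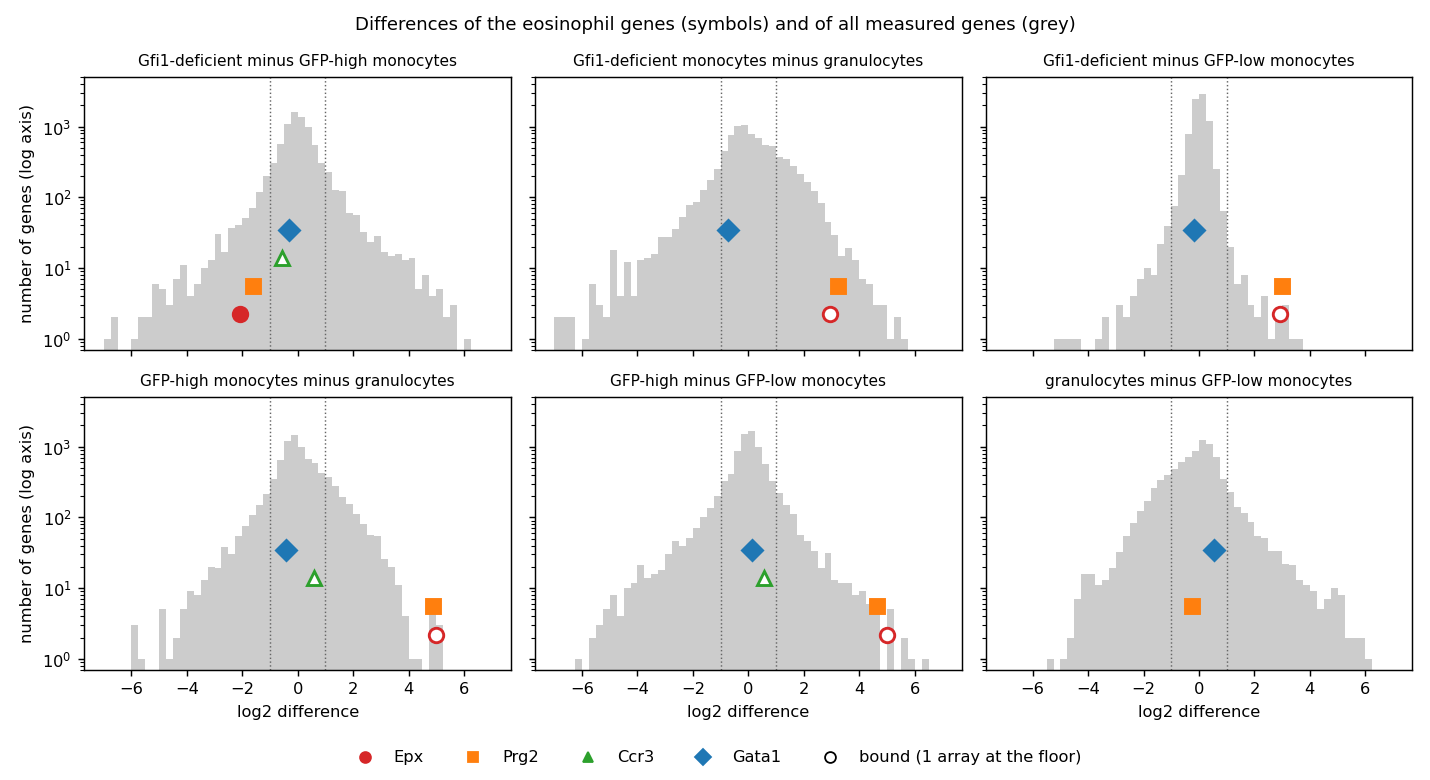
Log2 differences (x axis) in the 6 comparisons, with all measured genes as a grey histogram (number of genes, log axis), the 2-fold rule as dotted lines and Epx, Prg2, Ccr3 and Gata1 as symbols whose height has no meaning. Open symbols are bounds. Epx and Prg2 lie far to the right in the comparisons of Gfi1-deficient or GFP-high monocytes with granulocytes or GFP-low monocytes, and Gata1 lies inside the dotted lines in each.

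Counted by comparison, the members apart by 2-fold were Epx and Prg2 in each of the 5 comparisons that had any. Between Gfi1-deficient and GFP-high monocytes, 0 of 4 measured members were higher and 2 lower, where 9.53% of all genes were higher and 7.81% lower. Between Gfi1-deficient monocytes and granulocytes, 2 of 3 were higher and 0 lower, against 20.3% and 11.2% of all genes. Between Gfi1-deficient and GFP-low monocytes, 2 of 3 were higher and 0 lower, and here the background was smallest, with 0.637% of all genes higher and 1.27% lower. GFP-high monocytes had 2 of 4 higher and 0 lower than granulocytes (16.4% and 8.93% of all genes) and 2 of 4 higher and 0 lower than GFP-low monocytes (9.03% and 9.61%). Granulocytes and GFP-low monocytes differed 2-fold in 0 of 2 measured members, where 10.0% of all genes were higher in granulocytes and 18.2% lower. Comparisons that share an array are not independent of each other.

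The median over the measured members was -1.10 for Gfi1-deficient minus GFP-high monocytes, against -0.017 for all genes. It was 2.93 for Gfi1-deficient monocytes minus granulocytes and 2.93 for Gfi1-deficient minus GFP-low monocytes, against 0.0092 and 0.032. For GFP-high monocytes it was 2.72 against granulocytes and 2.60 against GFP-low monocytes, with -0.033 and 0.026 for all genes. These medians leave out members under the floor on both arrays and so rest on 3 or 4 genes, and each of these 5 is set by a bound. The 2 values of 2.93 are the bound of Epx, equal because both other arrays were set to the floor, and the other 3 contain the bound of Ccr3.

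Other eosinophil genes were read from a list of 26 names, several of them older names of the same gene, of which 15 genes had a probe set. They did not move as a block. Between GFP-high and GFP-low monocytes, 4 of 10 measured genes were at least 2-fold higher (Prg3, Siglecf, Alox15 and Ear3) and 2 lower (Adgre4 and Adgre1), with a median of 0.21, where 9.03% of all genes were higher and 9.61% lower. Between Gfi1-deficient and GFP-high monocytes the same 4 were lower and 4 others higher, with a median of 0.29, where 7.81% of all genes were lower and 9.53% higher.

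Prg3, which encodes a second major basic protein and stands next to Prg2 on chromosome 2, read log2 7.13 in Gfi1-deficient monocytes, 9.38 in GFP-high monocytes, 5.37 in granulocytes and 5.61 in GFP-low monocytes. The order of the 4 arrays was that of Prg2, also for the small step of -0.23 between granulocytes and GFP-low monocytes. GFP-high monocytes were 16.1-fold higher than granulocytes and 13.6-fold higher than GFP-low monocytes. Gfi1-deficient monocytes were 4.75-fold lower than GFP-high monocytes and 2.87-fold higher than GFP-low monocytes, which placed them 40.3% of the way between GFP-low and GFP-high monocytes.

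Alox15, the 12/15-lipoxygenase of eosinophils and macrophages, read 8.35 in Gfi1-deficient monocytes, 10.10 in GFP-high monocytes, 6.57 in granulocytes and 7.30 in GFP-low monocytes. It kept the order of Prg2, with Gfi1-deficient monocytes 37.6% of the way between GFP-low and GFP-high monocytes. Siglecf, the sialic acid receptor that marks mouse eosinophils, read 5.81 in Gfi1-deficient monocytes, 8.14 in GFP-high monocytes, 7.02 in granulocytes and 4.92 in GFP-low monocytes. It was highest in GFP-high monocytes too, but granulocytes came next, 2.31-fold above Gfi1-deficient monocytes. Ear3, of the eosinophil-associated ribonucleases, read 9.25 in Gfi1-deficient monocytes, 10.53 in GFP-high monocytes, 8.73 in granulocytes and 9.02 in GFP-low monocytes. Its probe set has the _x_at suffix, which Affymetrix gives to probe sets that may also bind transcripts of related genes.

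**Figure D3:**
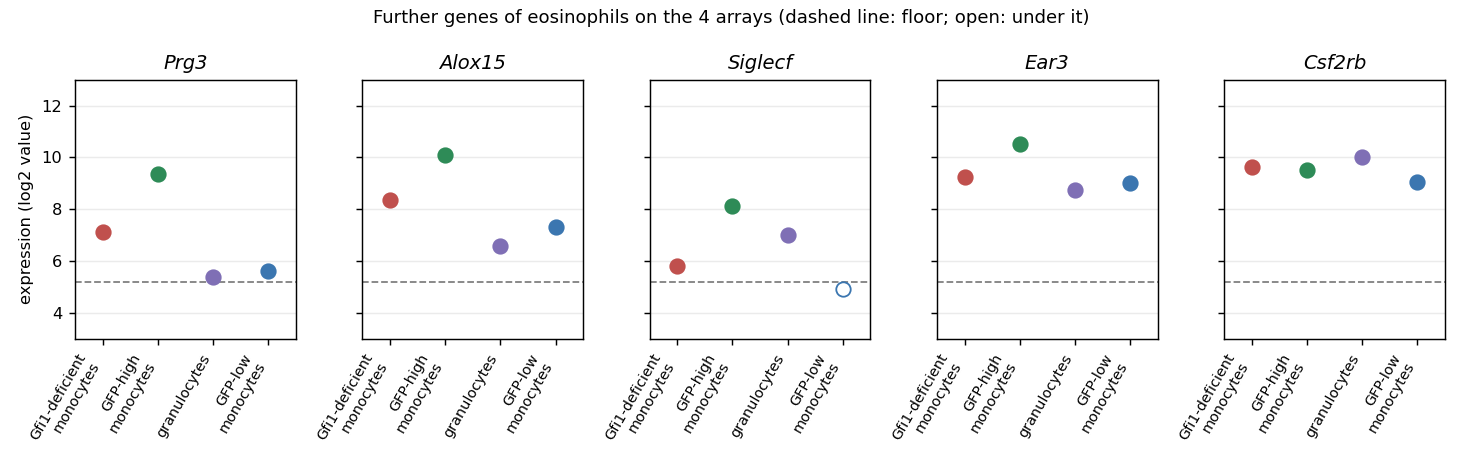
Expression (log2 value, y axis) of Prg3, Alox15, Siglecf, Ear3 and Csf2rb on the 4 arrays (x axis), 1 point for each population, with the floor as a dashed line and values under it as open points. The first 4 are highest in GFP-high monocytes, and Csf2rb lies between 9.05 and 10.02.

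The remaining genes of that list had other patterns. Adgre1, which encodes the F4/80 antigen of macrophages and eosinophils, was 5.02-fold higher in Gfi1-deficient than in GFP-high monocytes and 5.37-fold lower in GFP-high than in GFP-low monocytes. Ccr1, a chemokine receptor that stands in the same cluster as Ccr3, was highest in granulocytes, at 12.13, and 5.89-fold higher there than in GFP-low monocytes. Adgre4, Csf2rb2 and Csf2ra were not highest in GFP-high monocytes either. The surface receptors Ptgdr2 and Hrh4 passed the floor in granulocytes alone (5.51 and 5.25). Rnase2a, Ltc4s, the leukotriene C4 synthase gene, and Il5, the cytokine itself, were under the floor on each of the 4 arrays. Over the 6 comparisons the count of genes at least 2-fold higher in this list was 2 to 4, and that of genes lower 1 to 4, of 10 or 12 measured, against shares of all genes of 0.637% to 20.3% higher and 1.27% to 18.2% lower.

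Factors of the lineage other than Gata1 were read for 11 genes. Between Gfi1-deficient and GFP-low monocytes 0 of the 11 were 2-fold apart, where 0.637% of all genes were higher and 1.27% lower, so that few would be expected at the background share. Gata2, a partner of Gata1 in eosinophil commitment, read 6.02 in Gfi1-deficient monocytes, 6.45 in GFP-high monocytes, 6.82 in granulocytes and 6.65 in GFP-low monocytes. Zfpm1 encodes FOG-1, a Gata1 cofactor, and read 5.16, under the floor, in Gfi1-deficient monocytes, 5.42 in GFP-high monocytes, 6.25 in granulocytes and 5.98 in GFP-low monocytes. Both were lowest in Gfi1-deficient monocytes and highest in granulocytes, as Gata1 was.

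Between GFP-high and GFP-low monocytes, 1 of 11 lineage factors was at least 2-fold higher and 3 lower, against 9.03% and 9.61% of all genes, so that the count of higher factors was at the background share. Id1, an inhibitor of basic helix-loop-helix factors, was 2.06-fold higher. Cebpa, a factor of granulocyte and monocyte progenitors, was 3.33-fold lower, Cebpb 2.69-fold lower and Nfil3 2.46-fold lower. Trib1, a pseudokinase that lowers C/EBP-alpha protein and shapes eosinophil identity in mice, was 5.24-fold lower in Gfi1-deficient monocytes than in granulocytes and 3.59-fold lower in GFP-high monocytes than in granulocytes. Spi1, which encodes PU.1, was within 2-fold in each comparison.

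The genes most like Epx and Prg2 were found by the Euclidean distance between log2 profiles over the 4 arrays, each centred on its own mean, among 8621 genes above the floor on at least 1 array. Prg2 was the gene nearest to Epx and Epx the gene nearest to Prg2, at a distance of 0.36. The next 3 for both were Ctsg and Elane, serine proteases of the primary granules of neutrophils, and Cst7, a cystatin. Ctsg lay at 0.49 from Epx and 0.38 from Prg2, Elane at 0.53 and 0.40, and Cst7 at 0.86 and 0.88. Mpo, which encodes myeloperoxidase and stands near Epx on chromosome 11, ranked 5 from Epx at 0.92 and 6 from Prg2 at 1.17, and Prg3 ranked 7 from both. The Epx values in granulocytes and GFP-low monocytes were set to the floor, so the distances and ranks from Epx depend on it. For Ccr3, with 3 of 4 values at the floor, the nearest genes (Dipk1b, Usp11, Pecr and Serpinb2, at 0.012 to 0.022) were those that also passed the floor in GFP-high monocytes alone, at a like level. The floor fixed that likeness, and nothing is read from it. Those nearest to Gata1 were Wdr54, Myh9, Zbtb7c and Fank1, at 0.017 to 0.047. With 4 points a small distance describes these arrays and carries no test.

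Most primary granule genes of neutrophils thus read highest in GFP-high monocytes and next in Gfi1-deficient monocytes, as the eosinophil granule genes did. In Gfi1-deficient minus GFP-low monocytes, 5 of 6 measured genes of that list were at least 2-fold higher and 0 lower, with a median of 2.45, where 0.637% of all genes were higher and 1.27% lower. The exception was Ctsc, the protease that activates the granule serine proteases, which read 12.82 in Gfi1-deficient monocytes, 9.24 in GFP-high monocytes, 9.35 in granulocytes and 12.46 in GFP-low monocytes. The summed linear level of the 6 was 19053 in Gfi1-deficient monocytes, 45635 in GFP-high monocytes, 2315 in granulocytes and 7646 in GFP-low monocytes, all 6 being above the floor on each array. On the GFP-low array Ctsc (12.46) lay well above the next gene, Prtn3 (9.69), and on the Gfi1-deficient array Ctsc was also the highest of the 6. Ctsc weighs most in the sums of those arrays, which are therefore not a measure of the other genes. The median log2 value of the 6 was 8.49 in granulocytes and 8.70 in GFP-low monocytes. Gfi1-deficient monocytes lay 56.4% of the way between GFP-low and GFP-high monocytes for Elane, 56.3% for Ctsg, 62.9% for Prtn3, which encodes proteinase 3, and 59.8% for Mpo, but 40.4% for Ms4a3, beside 64.9% for Prg2 and at least 58.6% for Epx. The granulocyte side differed between genes. Mpo was 2.42-fold and Ms4a3 2.47-fold higher in granulocytes than in GFP-low monocytes, Prtn3 2.70-fold lower, and Prg2 1.18-fold lower.

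**Figure D4:**
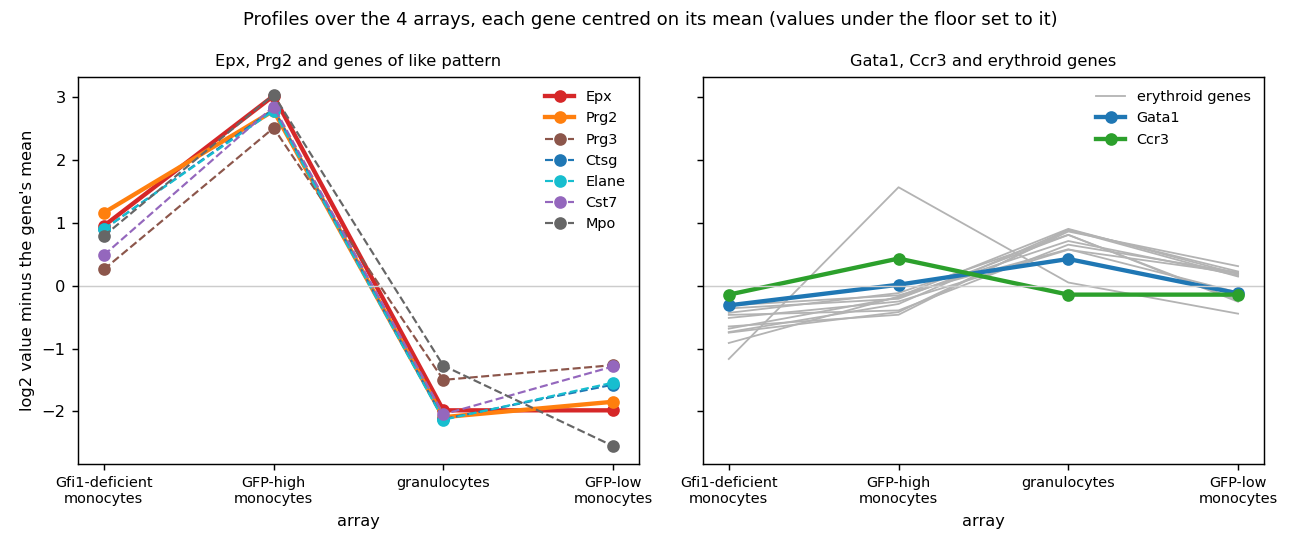
Log2 values minus each gene's mean (y axis) over the 4 arrays (x axis), with values under the floor set to it. On the left Epx and Prg2 (solid) run with Ctsg, Elane, Cst7, Mpo and Prg3 (dashed), all highest in GFP-high monocytes. On the right Gata1 and the erythroid genes (grey) are lowest in Gfi1-deficient monocytes. All of these but Tfrc, the grey line that peaks in GFP-high monocytes, are highest in granulocytes. Most grey lines are lower in GFP-high than in GFP-low monocytes, unlike Gata1. Ccr3 peaks in GFP-high monocytes.

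The basophil and mast cell list had 13 genes with a probe set, and its members had differing patterns. Kit, the stem cell factor receptor, was highest in GFP-high monocytes as Epx was, at 8.11, at least 7.66-fold above both Gfi1-deficient and GFP-low monocytes and 3.04-fold above granulocytes, but unlike Epx it was under the floor in Gfi1-deficient monocytes. Mitf, a mast cell and macrophage factor, was 4.25-fold lower in GFP-high than in GFP-low monocytes. Mcpt8, a basophil protease, read 7.55 in Gfi1-deficient monocytes, 7.78 in GFP-high monocytes, 7.32 in granulocytes and 8.32 in GFP-low monocytes, highest where Epx was under the floor. Cpa3, the mast cell carboxypeptidase, had a range of 6.25 to 6.83. The high-affinity IgE receptor gene Ms4a2 was under the floor on each of the 4 arrays and Fcer1a passed it in Gfi1-deficient monocytes, granulocytes and GFP-low monocytes. Hdc, the histamine-forming enzyme, read 6.50 in Gfi1-deficient monocytes, 10.87 in GFP-high monocytes, 12.23 in granulocytes and 7.16 in GFP-low monocytes. The list's summed linear level was 903, 2828, 5632 and 1120.3 in that order. Hdc had the highest value of the list in GFP-high monocytes and in granulocytes, and weighs most in the sums of those arrays. The part of basophils and mast cells in the values of the eosinophil genes was not tested.

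The sort and genotype were read from 2 genes. Gfi1 itself read 5.18, just under the floor, in Gfi1-deficient monocytes, 10.31 in GFP-high monocytes, 7.31 in granulocytes and 3.74 in GFP-low monocytes, and whether its probe set lies in the replaced part of the gene is not known here. Itgam, the CD11b chain, read 10.38 in Gfi1-deficient monocytes, 11.06 in GFP-high monocytes, 11.92 in granulocytes and 10.28 in GFP-low monocytes. Epx and Prg2 were thus highest on the array with the highest Gfi1 reading, but the order of the other arrays differed, since granulocytes had the second highest Gfi1 value and low Epx and Prg2. The monocyte genes, at a summed level of 31214 in Gfi1-deficient monocytes, 1775 in GFP-high monocytes, 3607 in granulocytes and 34719 in GFP-low monocytes, were highest in Gfi1-deficient and GFP-low monocytes, which differed 8.03-fold in Prg2. Of the 5 genes, the granule genes alone were 2-fold apart between arrays, and the receptors were at or under the limit of measurement on 3 or more of the 4 arrays.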

How the data were processed

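RNA of 4 sorted populations was measured on 1 Affymetrix array each, from 6 µg of total RNA extracted with TRIzol, per the labels' protocols. The authors deposited log2 values of 22690 probe sets. The scale was taken from the range of 2.70 to 14.50, the log base is not stated, and how probes were combined and normalized is not given in the sources used here. Medians of the arrays were 5.91 to 6.01, so the deposited log2 values were used unscaled. A normalization to a common distribution would hide a shift shared by most genes.

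Probe sets were named from the platform annotation, with 20364 of 20393 single-gene probe sets matched by identifier to RefSeq genes of GRCm38.p6. Where a gene had several probe sets, that of highest mean stood for it (12393 genes). Values under the 40th percentile (5.18) were set to it, and differences were called from a log2 difference of 1. Genes under the floor on both arrays were left out of a comparison. Between 59.2% and 61.0% of probe sets reached the floor, and the number of arrays limits the precision. No test was made. The named genes were the 5 members, the genes of the other lists that were 2-fold apart (up to 4 for a comparison) or that a small count asked for, and the 4 nearest profiles. Rnase2a was reached through an older name. Genes of the lists named without passing the rule, such as Mcpt8, Klf1 and Alas2, were chosen after their values were seen, as markers. The counting and distance steps were tested on simulated data of genes well above the floor, with less noise than the scatter between probe sets. The handling of values under the floor and of bounds was not tested there. Alternatives were the floor, the scaling, the choice of probe set and the size rule. The members and lists were chosen with earlier results of these data known. Python 3.11.15, pandas 2.3.3 and numpy 2.4.6 were used.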

Additional observations from a re-analysis of the deposited data

How the results depend on the processing

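The count of members at least 2-fold apart stayed within 1.5 times the reported count in 47 of 48 repeats, over 6 comparisons and 8 alternatives. Each member has 1 probe set, so the alternatives of probe set choice gave the main values by construction, for counts and single differences alike. The 1.5 rule also passed a count of 3 in place of 2 in comparisons with GFP-high monocytes, where a lower floor or no floor added Ccr3. The exception was the 4-fold rule (a log2 difference of 2) in Gfi1-deficient minus GFP-high monocytes, where 1 member, Epx, was counted in place of 2. No called difference of a member changed its sign. Among repeats of single differences, 117 stayed within the SD between probe sets and 14 moved by more than it, all of them of Epx or Ccr3 and all through the floor. In Gfi1-deficient minus GFP-low monocytes Epx was at least 1.30 with the floor at the 60th percentile and 3.36 without a floor, an alternative chosen after seeing the data. In GFP-high minus GFP-low monocytes it was at least 3.37 and 5.43. Prg2 lay between 3.01 and 3.04 in Gfi1-deficient minus GFP-low monocytes and between 4.63 and 4.68 in GFP-high minus GFP-low monocytes over its alternatives. Its values lay above each floor tried, so the floor could not move them. With the floor at the 60th percentile Ccr3 and Gata1 had no value. Under the 4-fold rule Gfi1-deficient minus GFP-low monocytes gave 14 higher and 23 lower genes over the whole array, against 51 and 102 under the 2-fold rule, and 204 and 282 in GFP-high minus GFP-low monocytes in place of 743 and 791. No paired analysis was possible because each group has 1 array, and for the same reason no replicate could be left out. Signal near the floor limits Il5ra and Ccr3.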

Other observations

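The chemokine receptor genes beside Ccr3 on chromosome 9 each had a pattern of their own. Ccr2, the monocyte receptor for Ccl2 and the next gene after Ccr3, read log2 12.33 in Gfi1-deficient monocytes, 6.75 in GFP-high monocytes, 8.06 in granulocytes and 12.32 in GFP-low monocytes, and so was lowest on the array where Ccr3 was highest. Ccr1 was highest in granulocytes. Ccr1l1, which lies between Ccr1 and Ccr3, and Xcr1, a dendritic cell receptor, were under the floor on each of the 4 arrays.

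Beside the pair of Prg2 and Prg3 on chromosome 2, Slc43a3, a purine transporter gene on the other side of Prg2, read 7.45 in Gfi1-deficient monocytes, 8.94 in GFP-high monocytes, 6.84 in granulocytes and 7.44 in GFP-low monocytes. It was highest in GFP-high monocytes as Prg2 was, while Gfi1-deficient and GFP-low monocytes differed by 0.012. P2rx3, on the far side of Prg3, was under the floor throughout. Near Epx on chromosome 11, Lpo, which encodes lactoperoxidase and lies between Mpo and Epx, was under the floor on each of the 4 arrays. These neighbours were chosen by position and their values are given as a description.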
